A study of Mus musculus with 6 samples.

Results

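H3K27ac, acetylation of histone H3 at lysine 27, was profiled by chromatin immunoprecipitation and sequencing (ChIP-seq) in C2C12 cells after 72 h of differentiation and in the same line during proliferation. C2C12 is a mouse myoblast line that leaves the cell cycle and fuses into myotubes in culture. The series concerns TAp63 in muscle differentiation, but the labels of the libraries compared here give no genotype or treatment other than the stage. Each stage was represented by 1 library, made from DNA pooled over 4 ChIP assays, so there is no replicate library and no test between the stages. The members were the 57101 peaks of the proliferation list and the 97144 peaks of the 72 h list, together 154245 of the 243962 peaks that the series' 3 lists hold. Peaks that overlapped by at least 1 bp were merged into 103644 regions, classed as shared, 72 h only or proliferation only. Coordinates follow mouse build mm9 with the first base of a chromosome as 1. They were not linked to genes, so the cell type could not be checked against marker genes here.

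H3K27ac is written by the acetyltransferases p300 and CBP and marks active promoters and active enhancers. It is often laid over several neighbouring nucleosomes, and long dense stretches of it are known from genes that define a cell type. In muscle cells the myogenic factors of the MyoD family and their MEF2 partners bring acetyltransferases to enhancers as myoblasts become myotubes.

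The ChIP library of 72 h was 1.1 times as deep as that of proliferation, as recovered from the fold and p-value of each peak, and its input 1.07 times. The median peak rested on 22 fragments at the summit in proliferation and on 20 at 72 h. The local background that each peak was called against had a median of 1.93 times the genome background at proliferation peaks and 1.15 times at 72 h peaks. Its part in the differences described here was not tested, except where values are given beside a result.

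Merged at an overlap of 1 bp, sites of H3K27ac were mostly called in 1 stage only, and most of those belonged to 72 h. Shared regions numbered 35264 (34.0%, 95% Wilson interval 33.7 to 34.3%). Regions of 72 h only numbered 58086 (56.0%, 55.7 to 56.3%), and those of proliferation only numbered 10294 (9.93%, 9.75 to 10.1%). These intervals cover counting error only. Of the proliferation list, 82.0% of peaks and 91.2% of the length under peaks lay in shared regions. Of the 72 h list, 40.2% of peaks and 59.2% of the length did. The class sizes depended on the lists' size and on merging. With both lists cut to their 57101 peaks of highest −log10 q, 26186 regions were 72 h only and 16780 proliferation only. The shared class, at 29220, was then the largest. Merging across gaps of up to 1 kb left 21752 and 2946 beside 23310 shared regions, which were again the largest class. When a reciprocal overlap of 50% was required, 35690 of the 57101 proliferation peaks counted as proliferation only and 75733 of the 97144 peaks of 72 h as 72 h only.

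The length under peaks was 31.3 Mb in proliferation and 63.7 Mb at 72 h, a difference of 32.4 Mb. Both lists covered the same 25.4 Mb, which is 80.9% of the proliferation length and 39.8% of the 72 h length. Inside shared regions, a further 12.4 Mb lay under 72 h peaks alone and 3.21 Mb under proliferation peaks alone. Regions of 72 h only held 26.0 Mb, and regions of proliferation only 2.76 Mb. Of the net difference, 28.2% thus lay in shared regions and 71.8% in regions of 1 list. This split holds for merging at 1 bp and was not recomputed for merging across gaps.

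**Figure D1:**
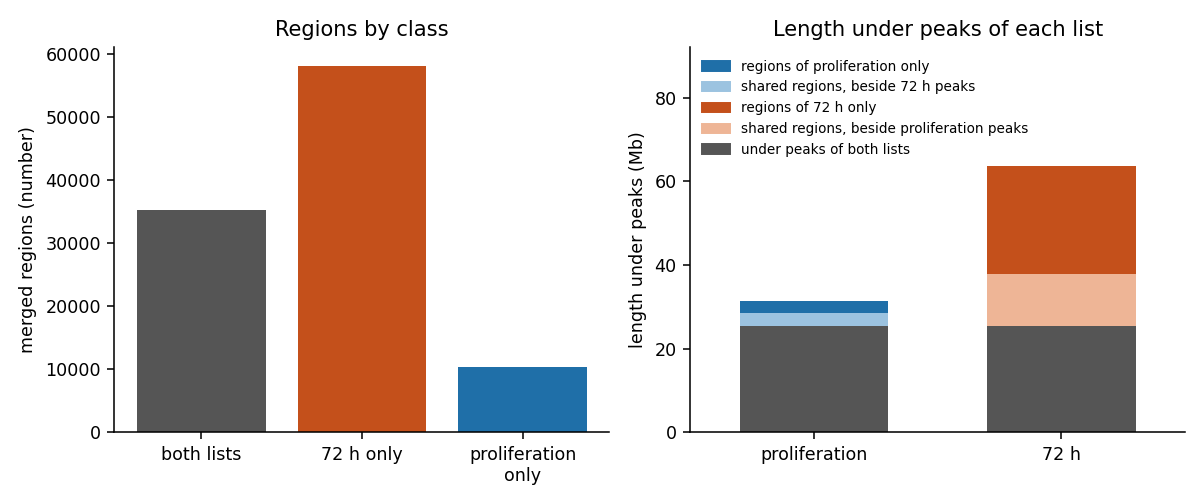
The left panel counts merged regions by class, and the right panel stacks the length under peaks of each list in Mb by where it lies. The length common to both lists, 25.4 Mb, is the dark part of each bar, and the 72 h bar reaches 63.7 Mb against 31.3 Mb for proliferation.

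Peaks of 72 h had a longer upper tail, while the narrow end of both lists was alike. The lower decile of peak width was 167 bp in proliferation and 168 bp at 72 h, and the median was 363 and 393 bp. At the upper decile the widths were 1141 and 1461 bp. Peaks of at least 1 kb numbered 7376 in proliferation and 17350 at 72 h, and they held 38.7% and 51.2% of the length under peaks. Peaks of at least 5 kb numbered 50 and 336, which is 6.72 times as many at 72 h.

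Width also differed between the classes, in part by construction. Shared regions had a median of 557 bp under proliferation peaks and 744 bp under 72 h peaks. Their length was summed over all their peaks, whereas each region of 1 list was a single peak. A wider peak also meets the 1 bp overlap more readily. Shared regions with 1 peak of each list had medians of 416 and 567 bp in that order. The median length was 298 bp in the 72 h only class and 219 bp in the proliferation only class. A length of at least 1 kb was reached by 4631 regions of 72 h only (7.97%) and by 47 of proliferation only (0.457%). Regions of at least 1 kb in 1 list only were thus nearly all at 72 h. In the whole lists, 17350 peaks of 72 h and 7376 of proliferation had that width. A wide proliferation peak also meets the denser 72 h list more readily than the reverse. The count was not recomputed with lists equal in number.

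**Figure D2:**
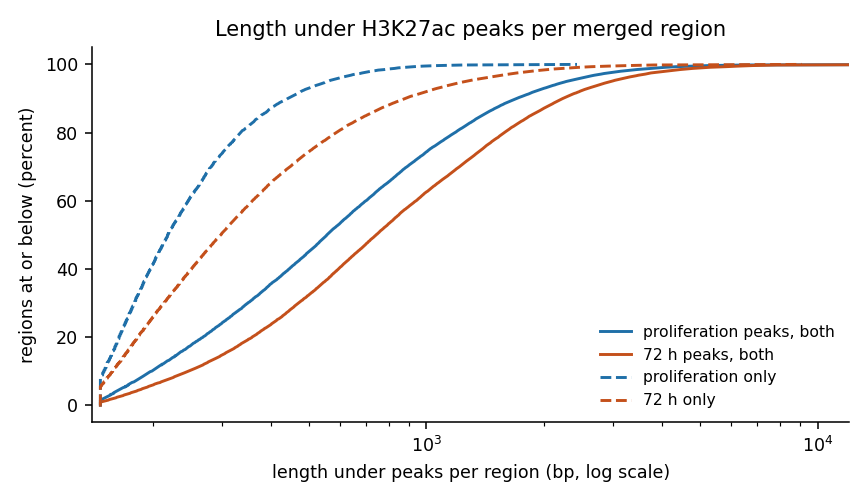
Cumulative share of regions (percent) by the length under peaks in bp on a log scale, for each list in shared regions (solid) and in regions of 1 list (dashed). The 72 h only curve, with a median of 298 bp, lies to the right of the proliferation only curve, with a median of 219 bp.

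The widest regions of 72 h only were much wider than the widest of proliferation only. The first, on chromosome 2 from 180096066 to 180105148, spanned 9083 bp as 1 peak, with 90 summit fragments and no proliferation peak within 87.9 kb. On chromosome 15 from 76845617 to 76854483, a peak of 8867 bp with 123 summit fragments lay 0.369 kb from the nearest proliferation peak. It was thus close to a site already acetylated. The region on chromosome 8 from 126410525 to 126419376 spanned 8852 bp and lay 1.78 kb from a proliferation peak. On chromosome 7, peaks of 8587 bp (139888726 to 139897312), 7109 bp (116852860 to 116859968) and 6936 bp (149744809 to 149751744) lay 8.33, 35.3 and 4.22 kb from the proliferation list. These 6 therefore include both isolated sites and neighbours of existing ones.

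Among regions of proliferation only, the widest spanned 2423 bp on chromosome 4 from 135699778 to 135702200. It had 65 summit fragments and lay 0.212 kb from a 72 h peak. The next, on chromosome 17 from 45365549 to 45367616, spanned 2068 bp with 60 fragments and lay 9.95 kb from the 72 h list. The others spanned 1875 bp (chromosome 11 from 78210199 to 78212073), 1776 bp (chromosome 1 from 135191322 to 135193097), 1692 bp (chromosome 1 from 140239591 to 140241282) and 1684 bp (chromosome 6 from 4469872 to 4471555). Of these 4, only the first on chromosome 1 stood far from the 72 h list, at 65.0 kb.

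Within shared regions the 72 h peaks were more often longer than shorter. More bp lay under 72 h peaks in 24592 of 35264 shared regions (69.7%, Wilson interval 69.3 to 70.2%), and fewer in 10587 (30.0%). The median ratio of length, 72 h over proliferation, was 1.23, with an upper decile of 2.78 and a lower decile of 0.682. In 6778 regions the length at 72 h was at least 2 times that of proliferation, and in 1514 the reverse held.

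Part of this difference lay in how peaks joined. In 7055 shared regions, 1 continuous 72 h peak covered or bridged several proliferation peaks, 16765 of them in all. The opposite arrangement, several 72 h peaks on 1 proliferation peak, was found in 2042 regions with 4358 peaks of 72 h. With lists equal in number the arrangements were found in 7201 and 859 regions, with −log10 q of at least 5 in 4180 and 1046, and with a fold of at least 5 in 3611 and 976. Gaps between neighbouring proliferation peaks under 1 continuous 72 h peak had a median of 134 bp, with an upper decile of 376 bp. The regions held a median of 1059 bp under proliferation peaks and 1645 bp under the 72 h peak.

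At the 24938 shared regions with 1 peak of each list, the peaks had nearly the same centre. The summits lay a median of 61 bp apart, and 79.0% were within 147 bp of each other, which is the shortest peak width listed. The 72 h peak was wider, with a median of 567 bp compared with 416 bp. Its edges lay further out by a median of 40 bp on one side and 41 bp on the other. Both edges lay further out at 72 h in 45.2% of these regions and further in at 15.2%. Most summits were thus close together, while the edges moved in the same sense on both sides in part of the regions.

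The largest gains in length at shared regions came from domains that were broken or nearly absent in proliferation. On chromosome 12 from 8440540 to 8452218, 5 proliferation peaks covered 1220 bp and 1 peak of 72 h covered all 11679 bp, with 23 summit fragments in proliferation and 115 at 72 h. On chromosome 6 from 97157866 to 97170910, 5 peaks with 3931 bp stood against 1 of 13045 bp, with 51 and 109 fragments. The region on chromosome 10 from 80869891 to 80884704 held 14 proliferation peaks with 6282 bp under 1 peak of 14814 bp at 72 h. Each of these 3 was a fragmented stretch in proliferation and a single block at 72 h.

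A further gain was on chromosome 2 from 119965224 to 119975568, with 1902 bp in proliferation and 10322 bp at 72 h. On chromosome 18 from 32542794 to 32553306 the lengths were 2144 and 10513 bp. The sixth, on chromosome 8 from 75105936 to 75113994, had only 147 bp under 1 proliferation peak of 11 fragments and 8059 bp under a 72 h peak of 84 fragments. This site came close to being 72 h only, since its proliferation peak was of the shortest width listed.

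Losses were smaller, and the largest was of a different form. On chromosome 11 from 94801316 to 94812451, a single proliferation peak of 11136 bp stood where 16 separate 72 h peaks covered 5767 bp, with 57 and 21 summit fragments. Here the local background was 1.98 times the genome background in proliferation and 1 time at 72 h. The block of acetylation at this site was the one broken into the most 72 h peaks of any proliferation peak. On chromosome 12 from 25783329 to 25786546, 3218 bp with 64 fragments stood against 147 bp with 14. On chromosome 2 from 71380943 to 71384362 the lengths were 3340 and 493 bp. On chromosome 17 from 27692706 to 27695753 they were 3048 and 722 bp, with 48 and 35 fragments.

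Summit signal at shared regions differed little in the middle of the distribution. Signal was taken as the ChIP pileup above local background, in units of the genome background of its library, which removes depth. Its median was 16.0 in proliferation and 18.4 at 72 h, and the median of the ratio, 72 h over proliferation, was 1.12. The quartiles of the ratio were 0.818 and 1.51. At the median of 27 fragments in proliferation and 33 at 72 h, counting error alone gives the depth-corrected ratio of 1.11 an exact 95% interval of 0.649 to 1.92. Most single regions therefore could not be told apart in height at this depth.

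Signal was at least 1.5 times higher at 72 h in 9042 shared regions, which is 25.6% of those compared. It was at least 1.5 times higher in proliferation in 4754, or 13.5%. These counts are over all shared regions and carry no test. Length and height moved together, but both come from the same pileup, so they are not independent measures. A region's length is also summed over its peaks, and its signal is the highest among them. The median length ratio was 1.93 where signal was higher at 72 h, 1.16 where it was within 1.5 times, and 0.742 where it was higher in proliferation. In the middle group the median length was 582 bp in proliferation and 708 bp at 72 h, at signals of 16.7 and 17.2. Even at similar summits the 72 h peaks were thus called longer, with a median local background of 1.98 in proliferation and 1.29 at 72 h there.

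**Figure D3:**
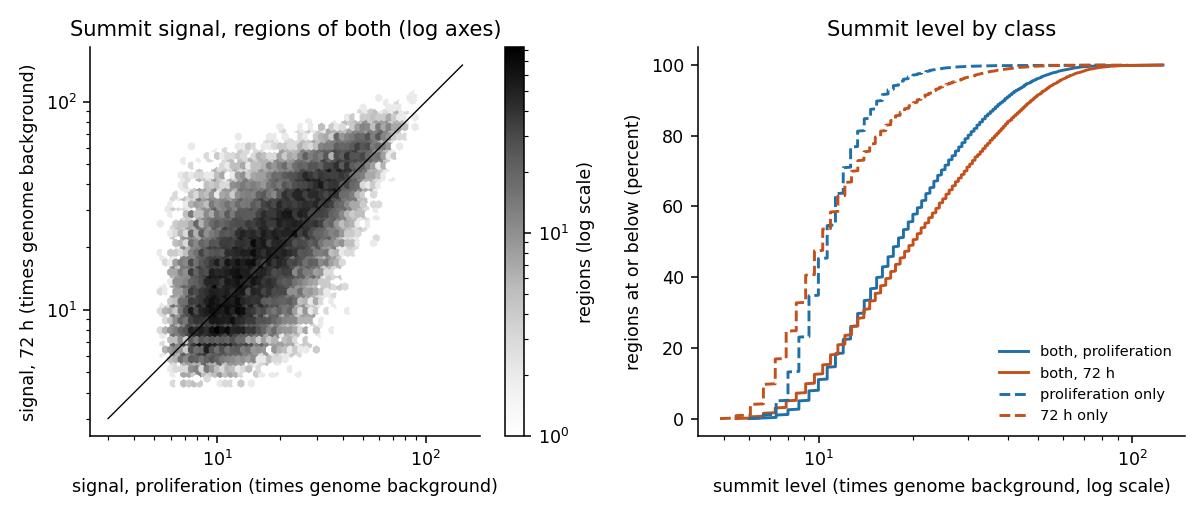
The left panel plots summit signal above local background at 72 h against proliferation for shared regions (log axes, in units of the genome background, shade for number of regions), with the line of equality. The right panel gives the cumulative share of regions by summit level, and regions of 1 list (dashed) lie at lower levels than shared regions (solid), with medians of 10.6 and 10.3 against 18.0 and 20.0.

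Regions of 1 list stood lower than shared regions. The summit level, the whole ChIP pileup in units of the genome background, had a median of 20.0 in the 72 h list and 18.0 in the proliferation list at shared regions. The median was 10.3 at 72 h only regions and 10.6 at proliferation only regions. Of the 72 h only regions, 6629 (11.4%) reached the median 72 h level of shared regions, compared with 589 proliferation only regions (5.72%) for the corresponding level. At the low end, 40.6% and 34.8% lay under the 10% quantile of shared regions in their own list. Most regions of 1 list therefore lay below the median level of shared regions in their own list. Part of this is built in, since the level of a region is the highest among its peaks. A shared region can hold several peaks of a list, and a region of 1 list holds 1. Peaks near the calling threshold also fall more readily into the classes called in 1 library only.

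How many 72 h only regions could have been called in proliferation depended on the local background assumed there. Had each 72 h only region kept its level in proliferation, 99.0% would have reached the smallest p of the proliferation list at the genome background. At the median local background of proliferation peaks, 83.1% would have done so, and at its upper 5% (3.96 times the genome background) 37.0%, or 21482 regions. For proliferation only regions placed in the 72 h library, the share was 100% at the median and 86.8% at the upper 5% (2.77 times). The 100% was nearly fixed by the construction. These regions had reached a −log10 p of at least 3.24 in proliferation, at a median local background of 1.45. The smallest −log10 p and the median local background of 72 h peaks were lower, at 2.92 and 1.15. All these shares use expected fragments and leave out counting error. The backgrounds are those at called peaks, since the other library's background at the regions themselves is not known.

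The highest regions of 72 h only, more than 5 kb from any proliferation peak, were of 2 sorts. On chromosome 15, the region from 57548347 to 57551056 had 135 summit fragments, a local background of 2.17 and its nearest proliferation peak at 20.9 kb. On the same chromosome, regions from 75588618 to 75590199 and from 75879714 to 75881305 had 125 fragments each, with backgrounds of 1.85 and 2.77, 53.7 and 18.4 kb from the proliferation list. On chromosome 1, the region from 90162926 to 90164751 had 117 fragments over a background of 4.62. The remaining 2 lay close together on chromosome 11, from 3053920 to 3054362 with 159 fragments and from 3040400 to 3041048 with 127, where the local background was 25.9 and 32.3. Their deposited folds were only 3.63 and 2.34, so they stood little above a very high local background.

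Sites of low background were picked after the values were seen, from the same set with a local background of at most 1.5 times the genome's. They were chromosome 1 from 20643464 to 20647851 (109 fragments, 4388 bp), chromosome 3 from 96327606 to 96328979 (105 fragments), chromosome 1 from 137731009 to 137732702 (104 fragments) and chromosome 2 from 155430087 to 155433560 (104 fragments, 3474 bp). The distance to the nearest proliferation peak was 11.8, 22.8, 5.86 and 11.2 kb in that order. Each had a level above 98.8% of 72 h peaks or more.

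The highest proliferation only regions, more than 5 kb from 72 h peaks, all stood on a high local background. Of the 6, 4 lay on unplaced sequence (Un_random), with 63 to 123 summit fragments and local backgrounds of 8.9 to 37.6. One lay on chromosome 3 from 56379345 to 56379641, with 94 fragments over a background of 26.7, and another on chromosome 11 from 3093184 to 3093403, with 73 fragments over 10.2. Their folds were 2.15 to 4.43. The region on chromosome 11 lies in the same part of that chromosome as the 2 regions of high background named for 72 h.

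On assembled chromosomes with a local background of at most 3, a choice made after the values were seen, the highest proliferation only sites had fewer fragments. The first, 11117491 to 11118325 of chromosome 4, had 48 fragments and stood 32.7 kb off the nearest 72 h peak. It was followed by chromosome 5 from 110715340 to 110715846 with 47 fragments. Next came a pair on chromosome 11 from 79226269 to 79226883 and from 79227082 to 79228541, with 46 and 45 fragments and 39.2 and 37.6 kb to the 72 h list. These sites reached levels above 86.1% to 88.0% of proliferation peaks.

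The spacing of peaks was closer at 72 h, mainly at the larger distances. The median gap between neighbouring peaks was 785 bp in proliferation and 634 bp at 72 h, and the lower decile was 91 and 84 bp. The upper quartile was 20.6 kb in proliferation and 11.1 kb at 72 h, a ratio of 0.538. Gaps of more than 100 kb made up 8.35% and 4.55% of all gaps. With lists equal in number the ratio of the upper quartiles was 1.14, so the closer spacing did not hold apart from the number of peaks.

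Sites of 1 list differed in how near they lay to the other list. The median distance to the other list was 0.666 kb for proliferation only regions and 8.32 kb for 72 h only regions. Within 500 bp, 44.1% (Wilson interval 43.2 to 45.1%) of proliferation only and 15.0% (14.7 to 15.3%) of 72 h only regions had a peak of the other list. Within 12500 bp the shares were 83.1% and 57.8%, and beyond 100 kb they were 2.41% and 7.14%. The denser 72 h list offers a nearer neighbour by number alone. With lists equal in number, 73.6% of proliferation only and 54.1% of 72 h only regions had a peak of the other list within 12500 bp. Within 1 kb, 56.7% of proliferation only regions had a 72 h peak and 21.3% of 72 h only regions had a proliferation peak. Most proliferation only regions were thus close neighbours of sites acetylated at 72 h.

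Regions of 72 h only that lay beside proliferation peaks were no larger than distant ones. Within 1 kb of a proliferation peak the median 72 h only region spanned 259 bp at a level of 9.7. Beyond 50 kb it spanned 315 bp at a level of 10.3. The corresponding proliferation only regions spanned 215 and 224 bp. Part of this is built in, since a wide peak near the other list more readily overlaps it. Such a peak is then classed as shared.

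**Figure D4:**
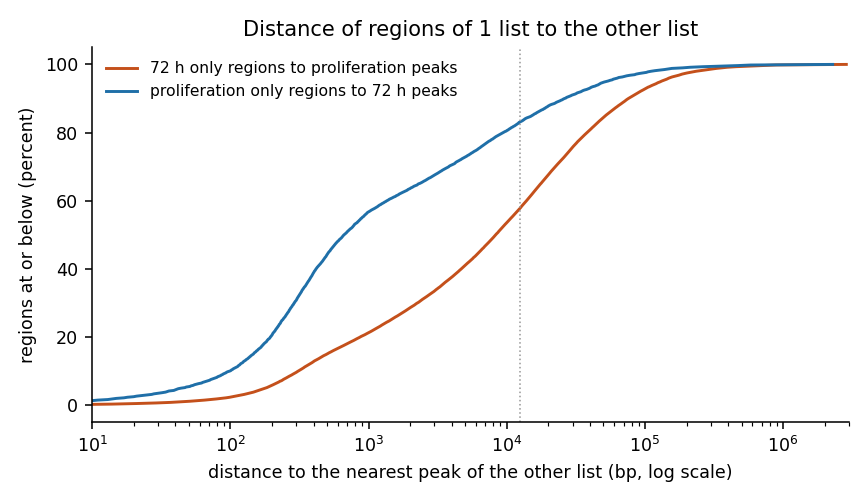
Cumulative share of regions of 1 list (percent) by the distance in bp (log scale) to the nearest peak of the other list, with a dotted line at 12500 bp. At that line 83.1% of proliferation only and 57.8% of 72 h only regions have been reached.

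The regions farthest from the other list had 11 to 20 summit fragments, where the class medians were 17 for 72 h only and 16 for proliferation only. On chromosome 15, 72 h only regions from 19786957 to 19787103 and from 19787349 to 19787683 lay 2864 and 2863 kb from the nearest proliferation peak, with 15 and 20 summit fragments. On chromosome X, those from 42444549 to 42444746 and from 42452616 to 42452788 lay 2821 and 2813 kb away, with 12 and 11 fragments. The farthest proliferation only region was on chromosome 14 from 97162262 to 97162440, 2282 kb from a 72 h peak, with 16 fragments. It was followed by chromosome 12 from 48913875 to 48914069 (19 fragments) and from 48934884 to 48935097 (20 fragments), and by chromosome 3 from 111619939 to 111620180 (20 fragments). The levels of these last 3 were 12.6, 13.3 and 13.3, at or above the upper quartile of their class, 12.6.

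Stitching the peaks of a list across gaps of up to 12500 bp gave 17462 clusters in proliferation and 23013 at 72 h. Clusters of 10 or more peaks numbered 929 and 2178, and those with at least 10 kb under peaks, here called long, 342 and 1241. A stitching gap of 5 kb left 168 and 722 long clusters, and a fold of at least 5 left 210 in proliferation. The long clusters were not denser at 72 h. Peaks filled a median of 37.2% of a long cluster in proliferation and 36.5% at 72 h, while the median span was 39.6 and 45.4 kb.

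Few long clusters of 72 h stood on ground without any proliferation peak. Of the 1241, 338 (27.2%) also held at least 10 kb under proliferation peaks, 422 held 5 to 10 kb, 427 held less than 5 kb and 54 held none. The length under 72 h peaks was at least 2 times that of proliferation in 780 (62.9%). Of the 342 long clusters of proliferation, 286 (83.6%) also held at least 10 kb under 72 h peaks and none was without a 72 h peak. Only 10 had at least 2 times the length in proliferation. Since long clusters were selected on length in 1 list, that list is favoured in these counts.

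When the peaks of both lists were stitched together, 14952 of 23874 clusters (62.6%) held peaks of both, 7800 (32.7%) held 72 h peaks only and 1122 (4.7%) proliferation peaks only. The clusters of both took 86.0% of the 72 h length under peaks, and in 11482 of them (76.8%) more length lay under 72 h peaks. Clusters of 72 h alone held 8.90 Mb in 19559 peaks, and 3249 of them were single peaks. Most of the 72 h length under peaks was thus in clusters that also held a proliferation peak. That length includes the 25.4 Mb under peaks of both lists. Clusters were stitched through 72 h peaks too, so a long run of 72 h peaks more readily takes in a proliferation peak.

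**Figure D5:**
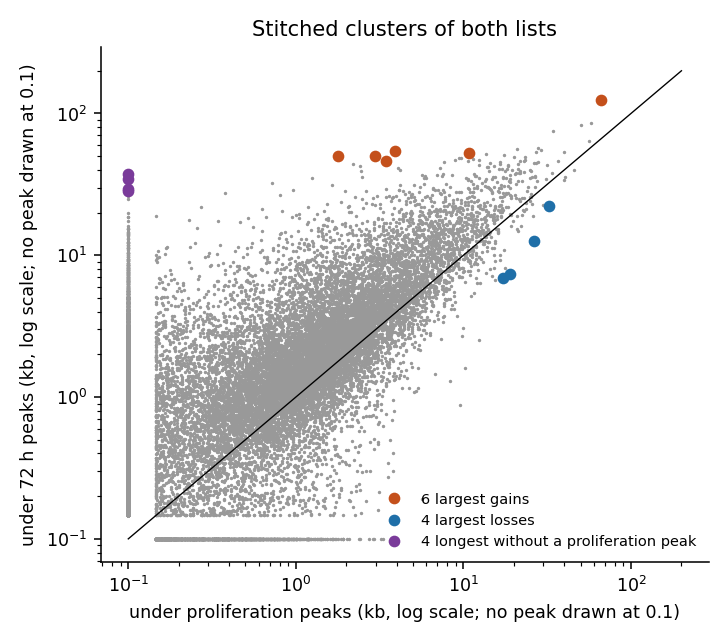
Each point is a cluster of both lists stitched across gaps of up to 12500 bp, with the kb under proliferation peaks on the x axis and under 72 h peaks on the y axis (log axes, clusters without a peak of a list drawn at 0.1 kb, line of equality in black). The cluster with the largest gain reaches 124 kb at 72 h against 65.8 kb in proliferation, and the largest losses lie below the line.

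Of the 6 clusters with the largest gains, 4 had little acetylation in proliferation and 2 already held more than 10 kb under peaks. The largest gain was in one of those 2, at 137513644 to 137762444 of chromosome 1, where 81 proliferation peaks covered 65.8 kb and 134 peaks of 72 h covered 124 kb. On chromosome 5 from 64660840 to 64786022, 3.91 kb under 12 peaks stood against 54.8 kb under 58. On chromosome 6 from 128175571 to 128251486, 1.78 kb under 7 peaks stood against 50.3 kb under 47. In these last 2, 72 h had dense peaks along a stretch where proliferation had a few scattered ones.

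Similar contrasts were found on chromosome 12 from 81890986 to 81988652, with 2.98 and 50.5 kb in proliferation and at 72 h. A cluster of chromosome 8 (97854673 to 97959251) had 3.44 and 46.3 kb. The other cluster already long in proliferation, of chromosome 2 (29474716 to 29588158), had 10.8 and 52.6 kb.

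The 4 clusters with the largest losses kept part of their length at 72 h. On chromosome 6 from 4436780 to 4487317, 26.5 kb under 39 proliferation peaks stood against 12.7 kb under 13 peaks of 72 h. The cluster of chromosome 11 (78173785 to 78213313) had 19.0 kb in proliferation and 7.36 kb at 72 h. That of chromosome 4 (135672173 to 135704927) had 17.2 and 6.87 kb. These 3 clusters each hold 1 of the widest proliferation only regions named above. The next, of chromosome 2 (109970419 to 110045259), had 32.5 and 22.4 kb.

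The longest clusters without any proliferation peak were chosen after the values were seen. The longest, 66964086 to 67039779 of chromosome 1, had 40 peaks of 72 h covering 37.4 kb. The cluster 56580674 to 56658794 of chromosome 7 had 54 peaks covering 34.4 kb. The third, 180094016 to 180136718 of chromosome 2, had 24 peaks covering 29.3 kb and contains the widest 72 h only region. The last, 114651339 to 114715184 of chromosome 11, had 26 peaks covering 28.2 kb. No cluster of proliferation peaks alone came near these lengths, the longest having 3.30 kb on chromosome 6 from 55285833 to 55289987.

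The classes were spread over all assembled chromosomes in similar shares. Among 20 chromosomes, the share of regions that were 72 h only ran from 52.2% on chromosome 3 to 59.2% on chromosome 18, and the share that were proliferation only from 8.07% on chromosome 5 to 12.0% on chromosome 3. The ratio of length under peaks, 72 h over proliferation, ran from 1.83 on chromosome 3 to 2.20 on chromosome 18. The X chromosome, with 2365 regions, had 57.4% in the 72 h only class and the highest ratio of peak numbers, 1.85. On unplaced and random sequences the split differed, with 79 of 211 regions 72 h only and 42 proliferation only, 30 of the latter on Un_random.

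At the scale of 1 Mb, more peaks were called at 72 h in 1972 of 2290 windows (86.1%) and more in proliferation in 222. The window on chromosome 1 from 137000001 to 138000000 held 237 regions of 72 h only, the most of any, beside 82 shared and 7 proliferation only regions. It holds the cluster of largest gain. The next were on chromosome 18 from 5000001 (144 regions of 72 h only), chromosome 11 from 88000001 (139, with no proliferation only region), chromosome 7 from 119000001 (138) and chromosome 19 from 47000001 (134). In each of these 5 windows, which were picked for that count, regions of 72 h only outnumbered shared ones. They did so over all regions too, at 58086 and 35264. The window on chromosome 7 held 138 and 83.

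Proliferation only regions were most frequent on chromosome 6 from 4000001 to 5000000, with 39 of them, 19 shared and 10 of 72 h only. That window holds the cluster of largest loss and was the one of the 5 where proliferation had more length under peaks by the widest margin, at 42.1 kb compared with 27.9 kb. The other 4 were on chromosome 3 from 121000001 (38 regions), chromosome 1 from 92000001 (36), chromosome 4 from 88000001 (35) and chromosome 3 from 107000001 (34). On chromosome 4 the length was also greater in proliferation, at 77.0 kb compared with 65.9 kb. In the remaining 3 windows more length lay under 72 h peaks, so a high number of proliferation only regions did not mean less acetylation there.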

How the data were processed

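H3K27ac ChIP-seq peak lists of 2 libraries, proliferation and 72 h, were compared; the 36 h list was only counted. Per the labels' protocols, each library came from DNA of 4 pooled assays with 1.2 µg of antibody per assay. The submitters' processing notes list BWA, MACS2 and deepTools with build mm9, without versions or settings. The deposited rows give a fold (a ratio over local background), a −log10 p, a −log10 q and a score per peak, all computed by the authors for each library separately. In 100% and 99.99% of rows the authors' deposited score equalled 10 times −log10 q with decimals dropped.

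Read depth was recovered from fold and −log10 p, taking each pileup as whole fragments times 1 scale factor (0.673 and 0.657). The input was assumed to be the control, since the settings are not given. All rows were matched within a relative 0.0003. The recovery, merging and distances were tested on simulated data. Level is pileup over genome background, and signal is pileup minus local background over genome background. Work was done in Python 3.11.15, numpy 2.4.6, pandas 2.3.3 and scipy 1.17.1. With 1 library per stage, no test between stages was made. Shares carry Wilson intervals.

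Named sites were the strongest, widest and farthest regions of 1 list, the largest gains and losses in length of regions and clusters, and the fullest 1 Mb windows. The members and lists were chosen with earlier results of these data known. Genes and sequence motifs were not analysed here. Genes and motifs need a genome of that build, and were planned only for that case. Sites chosen after their values were seen are marked so. Alternatives covered stricter peaks, lists equal in number, thinning, merging and stitching; assembled chromosomes only and a raised 72 h background were added after seeing the data.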

Additional observations from a re-analysis of the deposited data

Results flagged for a closer look

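The local background at peaks, recovered together with the ChIP signal from fold and −log10 p, often stood above the genome level. The genome level was taken as the lowest background held by many peaks, so few peaks could lie under it. Of the proliferation peaks, 87.2% had a local background more than 5% higher than that of the genome, and of the 72 h peaks 59.4% had one.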

How the results depend on the processing

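No paired analysis was possible because each stage has 1 library. Of 103 recomputed values over 16 results and 9 alternatives, 52 moved beyond their counting interval or by more than 1.5 times and 1 reversed. Values under assembled chromosomes alone all stayed close to those reported. Except where the construction shows it, the cause was not tested.

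With lists equal in number, the ratio of upper-quartile gaps reversed to 1.14 and the ratio of peak numbers was 1 by construction. The ratio of covered length was 1.70, with 29220 shared regions, 26186 of 72 h only and 16780 of proliferation only. More bp lay under 72 h peaks in 74.6% of shared regions, and 859 regions had several 72 h peaks on 1 of proliferation. The shares within 12500 bp of the other list were 54.1% (72 h only) and 73.6% (proliferation only). The share of 72 h only regions ran from 33.2 to 40.1% over chromosomes.

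With −log10 q of at least 5, fewer peaks enter. The ratio of peak numbers was 1.60, with 33034 regions of 72 h only and 6623 of proliferation only. The other values were 72.8% longer at 72 h, 4180 and 1046 regions with several proliferation or several 72 h peaks, a gap ratio of 0.566, 50.4 and 71.9% within 12500 bp, 48.9 to 55.7% over chromosomes and a signal ratio of 1.14. With a fold of at least 5, the covered length ratio was 2.13, with 22869 shared regions and 34277 of 72 h only. The other values were 73.2%, 3611 and 976 regions, a gap ratio of 0.525, 50.6 and 72.0% within 12500 bp, 210 long clusters in proliferation, a highest chromosome share of 57.5% and a signal ratio of 1.15.

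With 72 h thinned to the depth of proliferation, the peak ratio was 1.66 and the gap ratio 0.557. With its local background also raised to at least the median of proliferation peaks, the peak ratio was 1.49, the covered length ratio 1.95 and the gap ratio 0.654. More bp lay under 72 h peaks in 70.9% of shared regions, 80.7% of proliferation only regions were within 12500 bp, chromosomes ran from 48.0 to 55.1% and the signal ratio was 1.14. In both settings 72 h peaks were kept or dropped whole, with their deposited edges. The settings therefore cannot show whether the width of 72 h peaks depends on depth or background.

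When gaps of at most 1 kb were bridged there were 23310 shared, 21752 of 72 h only and 2946 of proliferation only, with 72.9% longer at 72 h. A reciprocal overlap of 50% left 21411 shared pairs and 35690 proliferation only peaks. Stitching at 5 kb left 722 long clusters at 72 h and 168 in proliferation. Genes and motifs were not run, since no genome of the files' build was used here. With 20 to 22 fragments at the median summit, single sites can be told apart only at large ratios.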
